A study of Homo sapiens with 30 samples.

Results

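The RNA recovered with granules of wild-type (WT) GFP-TIA1a was compared between cells treated with sodium arsenite and cells that were not. The comparison used the 6 libraries whose titles name the WT granule fraction, 3 with arsenite and 3 without, of 30 libraries in 10 groups of 3 in the series. The cells were a derivative of the Flp-In T-REx HEK293 line, an established human embryonic kidney line in which a transgene at a fixed docking site is switched on by tetracycline. They carried TIA1a fused to green fluorescent protein (GFP), and both groups received tetracycline. One group then received 0.5 mM sodium arsenite for 60 min. Granule cores were collected as the high-speed pellet of the lysate and captured on beads through GFP, so a granule level here is a level in RNA that pelleted and stayed with the tagged protein. Each group is 1 engineered line with an added, inducible TIA1a, which limits it as a model of granules built on the cell's own protein. WT cytosol libraries with and without arsenite, and granule libraries of the matching line with the Welander distal myopathy form of TIA1a (WDM), a mutation of a late-onset muscle disease, were used for 2 further comparisons.

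Arsenite is an oxidant that activates a kinase of the initiation factor eIF2α, which lowers the rate at which ribosomes start on mRNAs. The mRNAs freed from ribosomes gather with RNA-binding proteins, TIA1 and G3BP1 among them, into stress granules. The same exposure activates stress kinases and transcription factors that switch on immediate-early, heat-shock, antioxidant and metal-response genes. Granule cores are known to be rich in long and poorly translated transcripts, and short, well-translated mRNAs such as those for ribosomal proteins are known to be poor in them.

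Depth differed between the groups. Total counts were 5906167, 12806659 and 25176605 without arsenite (replicates 1 to 3) and 18864056, 23248752 and 26935119 with it. After every library was thinned to the smallest, 4440 genes were called, against 5620 below. Levels are given in CPM, counts scaled to the total of the library, and a count of 0 allows up to 3 counts, or 0.111 to 0.508 CPM in these 6 libraries, for counting error only. TIA1 had 1 count in the 6 libraries and 3 in all 30, so the transgene could not check the labels. The HEK293 line markers CDH2 and NEFL and the epithelial marker EPCAM were present at 259.7, 65.3 and 21.2 CPM without arsenite, and the blood markers CD3E and HBB had no count. Of the marker lists, 2 of 7 epithelial and kidney genes were called higher (CDH1 and LHX1, by 0.97 and 1.56 on the log2 scale), 1 of 3 HEK293 line genes was called lower (VIM, at -0.62), and 0 of 2 tested genes of other cell types were called. The first principal component of the 12 granule libraries of both lines held 37.9% of the variance and set arsenite apart from no arsenite, while 24.0% lay on a second component along which the lines differed. The labels do not say that replicates were separate cultures, so p-values measure the spread between these libraries, which may be technical. In bulk RNA, more of a transcript in each granule and more granules that hold it cannot be told apart.

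Arsenite changed the granule RNA widely. Of 18366 genes tested, 5620 (30.6%) were called at an edgeR Benjamini-Hochberg adjusted p under 0.05. Arsenite raised 3032 of them (16.5%) and lowered 2588 (14.1%). A called difference of at least 1 on the log2 scale was seen for 954 higher genes (5.19%) and 541 lower genes (2.95%). The groups did not overlap for 7819 genes (42.6%). These shares are the background for every gene group below. The gene lists were chosen with earlier results of these data known. A list's share beside its background is therefore a description and not a test. Without replicate 3 of the group without arsenite, 3157 genes were called. In a fit of 24 libraries that included the cytosol, 39.7% of the calls were higher rather than 54.0%, and the median of all genes was -0.14 rather than -0.03 on the log2 scale.

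Immediate-early genes, which are transcribed within minutes of a stimulus without new protein synthesis, rose as a group. Arsenite raised 32 of the 37 tested (background 16.5%) and lowered none (background 14.1%), with a median log2 difference of 1.16 against -0.03 for all genes. The groups did not overlap for 31 of the 37, and without 1 library 28 to 34 were called higher. EGR1 (ENSG00000120738, chromosome 5, 138465479 to 138469303, plus strand) and FOS (ENSG00000170345, chromosome 14, 75278826 to 75282230, plus strand) had the largest fitted rises of the list. Their promoters are shown because the activating factor of many immediate-early genes, serum response factor, binds the CArG box. The sequences are the 250 bases before each RefSeq start site, on GRCh38.p14, 5′ to 3′, with CArG boxes in capitals.
EGR1, plus strand, chr5:138465229-138465478: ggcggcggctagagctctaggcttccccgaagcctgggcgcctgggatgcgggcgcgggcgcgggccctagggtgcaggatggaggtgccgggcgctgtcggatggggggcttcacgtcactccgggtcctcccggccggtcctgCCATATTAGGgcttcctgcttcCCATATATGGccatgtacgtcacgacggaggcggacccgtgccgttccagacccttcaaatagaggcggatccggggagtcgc
FOS, plus strand, chr14:75278578-75278827: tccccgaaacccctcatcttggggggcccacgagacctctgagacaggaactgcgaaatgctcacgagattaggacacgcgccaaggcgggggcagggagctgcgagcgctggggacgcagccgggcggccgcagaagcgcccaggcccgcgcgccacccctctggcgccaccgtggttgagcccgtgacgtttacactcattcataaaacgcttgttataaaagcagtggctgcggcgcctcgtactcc
EGR1 held 2 matches, with first bases 105 and 83 before the start, and FOS held none in this window. Promoters of 250 bases before to 50 after the start were found for 27 of the 37 genes (35 promoters), and on either strand 3 of the 27 genes held a CArG box, 3 a cyclic AMP response element (TGACGTCA) and 1 an AP-1 site (TGANTCA) (none of these motifs contains another). By promoter the shares were 8.57%, 8.57% and 2.86% of the 35, against 1.3%, 1.84% and 7.73% of 34796 promoters of the same length. A match is a description of letters and was not tested as a binding site.

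EGR1, a zinc-finger transcription factor, had 13.0, 7.68 and 5.59 CPM in replicates 1 to 3 without arsenite and 261, 220.4 and 281 CPM with it. Every arsenite library lay far above every other, and the spread within a group was small beside the gap. The means were 8.76 ± 3.83 and 254 ± 30.7 CPM (SD, n = 3), and the log2 difference was 4.96 (standard error 0.234, edgeR Benjamini-Hochberg adjusted p 3.35e-14). FOS, a subunit of the AP-1 transcription factor, had 7.53, 5.42 and 4.56 CPM without arsenite and 60.7, 62.8 and 87.2 CPM with it. The groups were again widely apart, with a log2 difference of 3.66 (standard error 0.260, edgeR Benjamini-Hochberg adjusted p 4.77e-10). EGR3, of the same family as EGR1, rose from 0.875 ± 0.215 to 5.05 ± 0.445 CPM (SD, n = 3), a log2 difference of 2.64. MAFF, a small MAF transcription factor that is not on the list, rose by 2.46 and the secreted matrix protein gene CCN1 by 1.93. CCN1 had 11.6, 9.30 and 6.22 CPM without arsenite and 33.2, 34.2 and 32.0 CPM with it. Its 3 arsenite libraries were almost level with one another and lay above all 3 others.

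Other members of the list rose less. The AP-1 genes FOSB, FOSL1 and JUN rose by 1.70, 1.63 and 1.16 on the log2 scale. DUSP1, a phosphatase that switches off stress kinases, rose by 1.48, and BTG2, an antiproliferative protein that binds the CCR4-NOT deadenylase, by 1.36. MCL1, an anti-apoptotic BCL2 relative with a short-lived mRNA, had 178, 128 and 113 CPM without arsenite and 512, 342 and 430.0 CPM with it. All 3 arsenite libraries lay above the others, and the difference was 1.62 (standard error 0.195, edgeR Benjamini-Hochberg adjusted p 2.38e-06). SRF itself, the CArG-box factor, rose by 0.72.

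**Figure D1:**
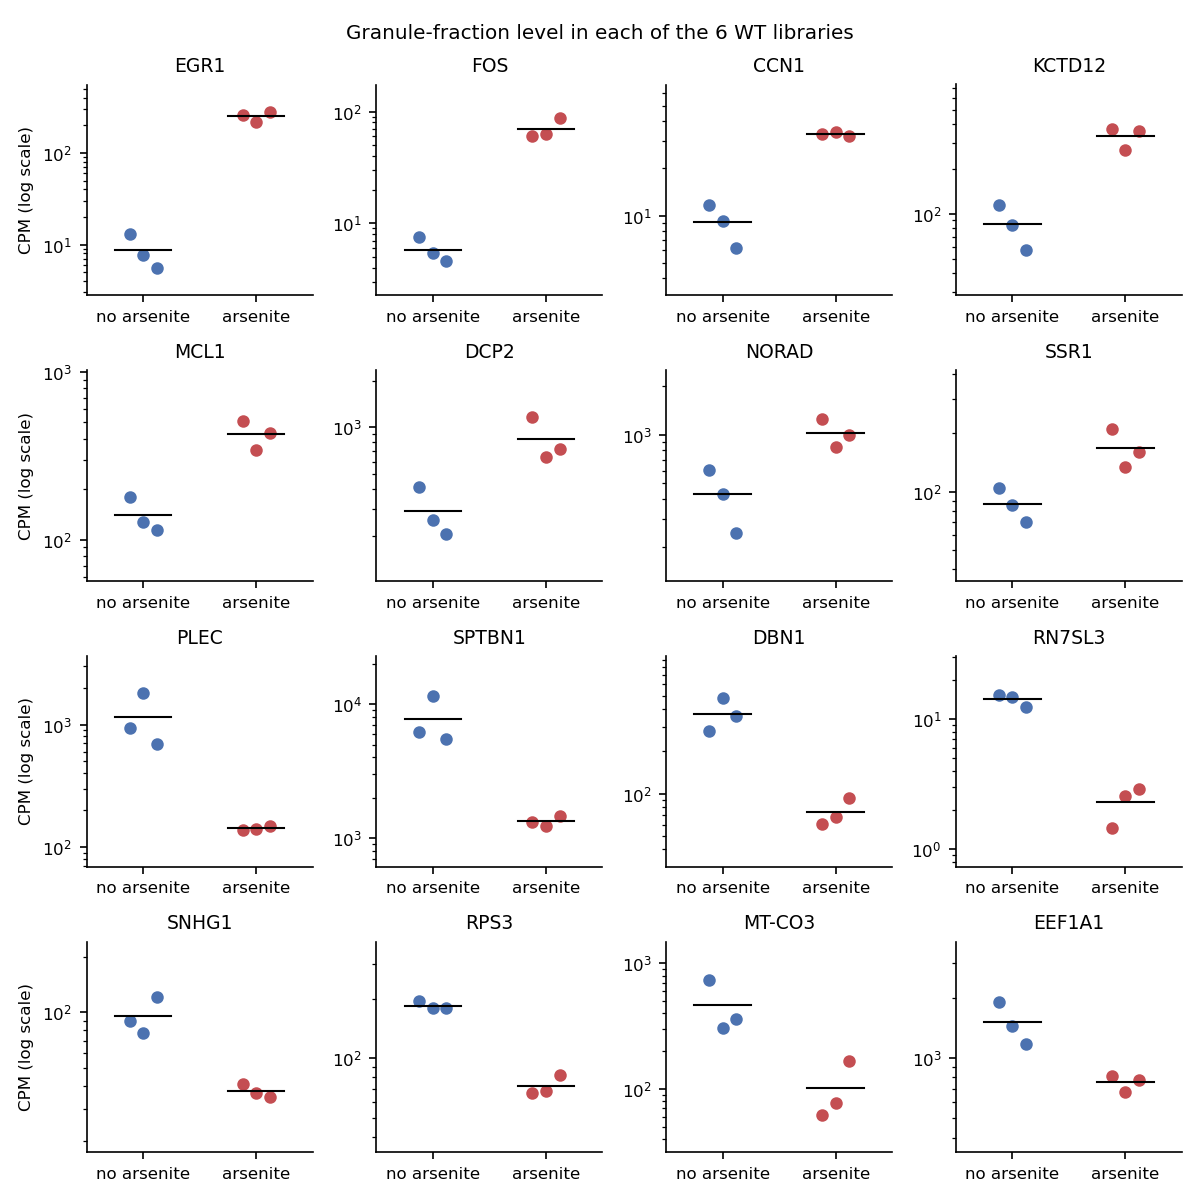
Level of 16 genes in each of the 6 WT granule libraries, in CPM on a log axis, with a line at the mean of each group of 3. For every gene drawn the arsenite libraries lie on 1 side of the libraries without arsenite; EGR1 goes from 5.59 to 13.0 CPM without arsenite to 220.4 to 281 CPM with it.

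Of the 15 genes of largest rise with a mean of at least 5 CPM, EGR1, FOS, EGR3 and CCN1 are on that list, and the others were a mixture. C12orf50, a gene named after its open reading frame, had 1.54, 0.485 and 0.984 CPM without arsenite and 6.61, 8.61 and 4.89 CPM with it, a log2 difference of 2.85. Arsenite libraries were the higher ones without overlap. The transporter gene SLC6A13 rose by 2.19, the laminin gene LAMB4 by 1.85, and the lncRNAs LINC02150 and LINC02798 by 1.91 and 1.86. SOX7, a transcription factor gene with 39.4% of its exon length shared with another gene on its strand, rose by 2.21. KCTD12 (ENSG00000178695, chromosome 13, 76880175 to 76886405, minus strand), an auxiliary subunit of GABA-B receptors, was the most abundant of these. It had 114, 83.3 and 56.7 CPM without arsenite and 368, 266 and 358 CPM with it. The lowest arsenite library lay well above the highest of the others, and the difference was 1.98 (standard error 0.224, edgeR Benjamini-Hochberg adjusted p 1.5e-06). DCK, which phosphorylates deoxycytidine, rose by 1.89, the phosphatase DUSP19 by 1.82, and TP53INP1, a p53-induced gene, by 1.80.

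The other stress programmes moved in part. Heat-shock genes did not move as a group: 4 of 22 rose and 1 fell, with a median of -0.03, and 2 rose without replicate 3 of either group. DNAJB1, a co-chaperone of HSP70, had 34.9, 33.1 and 26.2 CPM without arsenite and 82.1, 72.5 and 80.3 CPM with it, a log2 difference of 1.33 (standard error 0.178, edgeR Benjamini-Hochberg adjusted p 8.49e-06). All of its arsenite libraries were the higher ones. BAG3, another HSP70 partner, rose by 0.66, and the constitutive chaperone HSPA8 was not called (-0.09). The inducible HSP70 genes HSPA1A and HSPA1B, near-identical copies whose counts may be split uncertainly, differed by 0.76 and 0.77 but were not called without replicate 3 of the group without arsenite (0.47 and 0.59) or of the arsenite group (0.53 and 0.61). A heat-shock element (TTCNNGAA or GAANNTTC, either strand) lay in the promoters of 14 of 19 heat-shock genes with a RefSeq promoter, in 51.7% of their 29 promoters, against 13.5% of all promoters.

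Antioxidant and metal-response genes rose at 8 of 20 and fell at 1 (median 0.15), and 5 rose without replicate 3 of the group without arsenite. GCLM, the regulatory subunit of the enzyme that starts glutathione synthesis, had 40.2, 36.8 and 31.8 CPM without arsenite and 125, 84.5 and 91.2 CPM with it, a log2 difference of 1.47. The metallothionein MT2A rose by 1.57 and the small MAF factor MAFG by 1.02. NFE2L2, the main transcription factor of the antioxidant response, and its target NQO1 were not called (0.14 and 0.17). Genes of the integrated stress response, the programme downstream of eIF2α phosphorylation, rose at 10 of 17 and fell at 1 (median 0.51), with 5 higher without replicate 3 of the group without arsenite and 6 without replicate 3 of the arsenite group. HERPUD1, a membrane protein of endoplasmic reticulum (ER) quality control, had 17.8, 16.3 and 18.7 CPM without arsenite and 55.3, 52.6 and 45.5 CPM with it. The lowest arsenite library stood well above the highest of the others, and the difference was 1.54 (standard error 0.164, edgeR Benjamini-Hochberg adjusted p 1.33e-06). CHAC1, which degrades glutathione, rose by 1.21, the transcription factor CEBPB by 1.05 and the lipoprotein receptor VLDLR by 0.94.

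Messenger RNAs with AU-rich elements, 3′ UTR sequences that bind decay and translation factors and also TIA1, rose at 13 of 23 and fell at 1 (median 0.70, 12 or 13 higher without 1 library). Several of them are immediate-early genes as well (FOS, JUN, DUSP1, MCL1, KLF10 and ZFP36). Matches to ATTTA, a sequence of such elements, were also counted over protein-coding genes. At 3′ UTRs of 1000 to 2000 bases the median was 0.03 with no match and 0.07 with more than 4 (8.75% and 12.8% lower). At 2000 to 4000 bases it was 0.12 with up to 2 matches and 0.32 with more than 16 (96 genes). Whether the elements bear on the rise of the list was not tested. ZFP36 and ZFP36L1, which bind such elements and promote decay, each rose by 1.41. APAF1, the scaffold of the apoptosome, had 109.5, 95.8 and 77.2 CPM without arsenite and 284, 166 and 200.2 CPM with it, a log2 difference of 1.21. Its groups did not overlap. CXCL8, a chemokine gene at a low level, was the exception and went from 1.60 to 0.497 CPM in the mean, a log2 difference of -1.46.

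Messenger RNAs of very large cytoskeletal proteins fell. Arsenite lowered 14 of 15 cytoskeletal linker genes (background 14.1%) and raised none (background 16.5%), with a median log2 difference of -1.26; 11 to 14 were called lower without 1 library. The exception was DYNC1H1, the dynein heavy chain, at -0.31. These 15 genes held 3.91%, 6.55% and 3.82% of all counts without arsenite and 1.43%, 1.42% and 1.58% with it. Replicate 2 without arsenite was the highest library, and the groups did not overlap. The means were 4.76% ± 1.55 and 1.47% ± 0.0916 (SD, n = 3; exact permutation test, two-sided p = 0.1, the smallest that 3 against 3 allows).

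PLEC, or plectin, which ties intermediate filaments to other structures, had 939, 1816 and 698 CPM without arsenite and 138, 140.1 and 149 CPM with it. Replicate 2 without arsenite was the highest, the arsenite libraries were nearly level, and the log2 difference was -3.02 (standard error 0.264, edgeR Benjamini-Hochberg adjusted p 3.13e-08). SPTBN1 (ENSG00000115306, chromosome 2, 54456317 to 54671446, plus strand), a spectrin of the membrane skeleton, was among the most abundant mRNAs of the fraction, with 6239, 11457 and 5467 CPM without arsenite and 1314, 1224 and 1458 CPM with it. Each arsenite library lay far below the lowest library without arsenite, and the difference was -2.54 (standard error 0.280, edgeR Benjamini-Hochberg adjusted p 1.48e-06). Its partner SPTAN1 differed by -2.49. The nuclear-envelope linker SYNE2 differed by -2.36, the cytolinkers MACF1 and DST by -2.07 and -1.79, the myosin MYH9 by -1.26, and ANK3 and UTRN by -0.73 and -0.75. DBN1, CGN and EPPK1 are outside the list and were named for being among the 15 largest falls. DBN1, or drebrin, which binds actin filaments, had 279.8, 479 and 357 CPM without arsenite and 60.3, 67.7 and 92.5 CPM with it, a log2 difference of -2.34. CGN, or cingulin, of tight junctions, differed by -2.28 and the plakin EPPK1 by -2.18.

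Small structured and organellar RNAs were examined next. Of 4 small structured RNAs tested, 2 fell and none rose. RN7SL3, an RNA of the signal recognition particle, had 15.4, 15.0 and 12.4 CPM without arsenite and 1.46, 2.55 and 2.90 CPM with it, a log2 difference of -2.58 (standard error 0.220, edgeR Benjamini-Hochberg adjusted p 2.25e-08). All 3 arsenite libraries were far below the others. RN7SL1 differed by -2.0 and the pseudogene RN7SL4P by -2.44, near-identical copies between which reads can be split uncertainly. The 15 mitochondrially encoded transcripts had negative differences with a median of -1.82, but 2 were called lower, 13.3% against a background of 14.1%, and the groups did not overlap for 3. DESeq2 called 4 lower, the fit of 24 libraries 9, and edgeR without a filter on low counts 0. Mitochondrial transcripts held 0.433%, 0.197% and 0.253% of counts without arsenite and 0.0536%, 0.0660% and 0.145% with it. The groups did not overlap, and replicate 1 without arsenite was the highest. MT-CO3, a cytochrome oxidase subunit gene, differed by -2.18 (standard error 0.579, edgeR Benjamini-Hochberg adjusted p 0.0215) and was not called without replicate 1 of the group without arsenite (-1.69) or replicate 1 or 2 of the arsenite group (-1.91 and -2.03). The rRNA gene listed as 5_8S_rRNA (-2.41) and the microRNA gene MIR3648-2 (-2.30) were called too, and each was no longer called without replicate 2 or 3 of either group. With any 1 of the 6 libraries left out, 5_8S_rRNA lay between -2.73 and -2.01 and MIR3648-2 between -2.69 and -2.02. MIR222HG, the host transcript of a microRNA cluster, fell from 44.8 ± 7.84 to 9.44 ± 2.04 CPM (SD, n = 3), a log2 difference of -2.26.

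Messenger RNAs for the translation machinery fell together. Arsenite lowered 64 of 77 ribosomal protein mRNAs and raised none (median -0.75), and 53 to 64 were called lower without 1 library. RPS3, of the small subunit, had 196, 179 and 181 CPM without arsenite and 66.5, 68.1 and 82.7 CPM with it. The libraries of each group were close together and the groups far apart, with a log2 difference of -1.35 (standard error 0.168, edgeR Benjamini-Hochberg adjusted p 3.66e-06). RPL22 differed by -1.99, RPS12 by -1.29 and RPL12 by -1.28. The 83 ribosomal protein genes listed together held 1.05% ± 0.145 of counts without arsenite and 0.616% ± 0.0583 with it (SD, n = 3). Other translation factor mRNAs with a terminal oligopyrimidine (TOP) start, whose translation follows growth signals, fell at 14 of 22 and rose at none (median -0.57). EEF1A1, which carries tRNA to the ribosome, had 1912, 1452 and 1175 CPM without arsenite and 815, 674 and 777 CPM with it, a log2 difference of -1.0. EEF2 differed by -0.88 and EIF3H by -0.98.

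Hosts of small nucleolar RNAs, spliced transcripts whose introns carry guide RNAs for rRNA modification and many of which also have a TOP start, fell at 17 of 23 and rose at 1 (median -1.07, 13 to 18 lower without 1 library). GAS5 had 176, 131 and 178 CPM without arsenite and 62.8, 65.6 and 59.5 CPM with it, a log2 difference of -1.37 (standard error 0.162, edgeR Benjamini-Hochberg adjusted p 2.34e-06). The arsenite libraries were level with one another and below all others. SNHG1 differed by -1.37, SNHG12 by -1.35 and SNHG29 by -1.24. The riser was SNHG14 (1.32), at 1.26 CPM with arsenite, which kept its call only without replicate 2 of the arsenite group (1.06 to 1.65 over the 6 fits that left out a library). Nuclear-retained lncRNAs fell at 4 of 8 and rose at 1 (median -0.45), with 2 lower without replicate 2 of the group without arsenite or replicate 1 of the arsenite group. MALAT1 differed by -0.82, with 83.7% of its exon length opposite another gene, whose reads cannot be told apart if counting ignored strand, and NEAT1, of paraspeckles, was not called (0.21). TUG1 was the riser, at 0.98.

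Housekeeping groups moved less. Respiratory chain subunit mRNAs fell at 22 of 61 and rose at none (median -0.37), with 14 lower without replicate 3 of the group without arsenite; NDUFB1 of complex I differed by -1.06 and ATP5F1C of the ATP synthase by -1.01. Glycolytic mRNAs fell at 5 of 15 and rose at 1 (median -0.36), with 3 lower without replicate 2 of the group without arsenite or replicate 1 of the arsenite group. GAPDH had 446, 432 and 406 CPM without arsenite and 197, 210.0 and 272 CPM with it, a log2 difference of -0.92. Its groups did not overlap. Proteasome subunit mRNAs were called at 3 of 31, with 1 higher and 2 lower, a share below the background of 30.6%. Replication-dependent histone genes, whose mRNAs lack a poly(A) tail and whose copies are alike, fell at 12 of 48 (median -0.31), at 4 to 7 without any library but replicate 3 of the group without arsenite, at 6 with offsets for GC content and length and at 20 in the fit of 24 libraries. H2AC15 differed by -1.05.

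**Figure D2:**
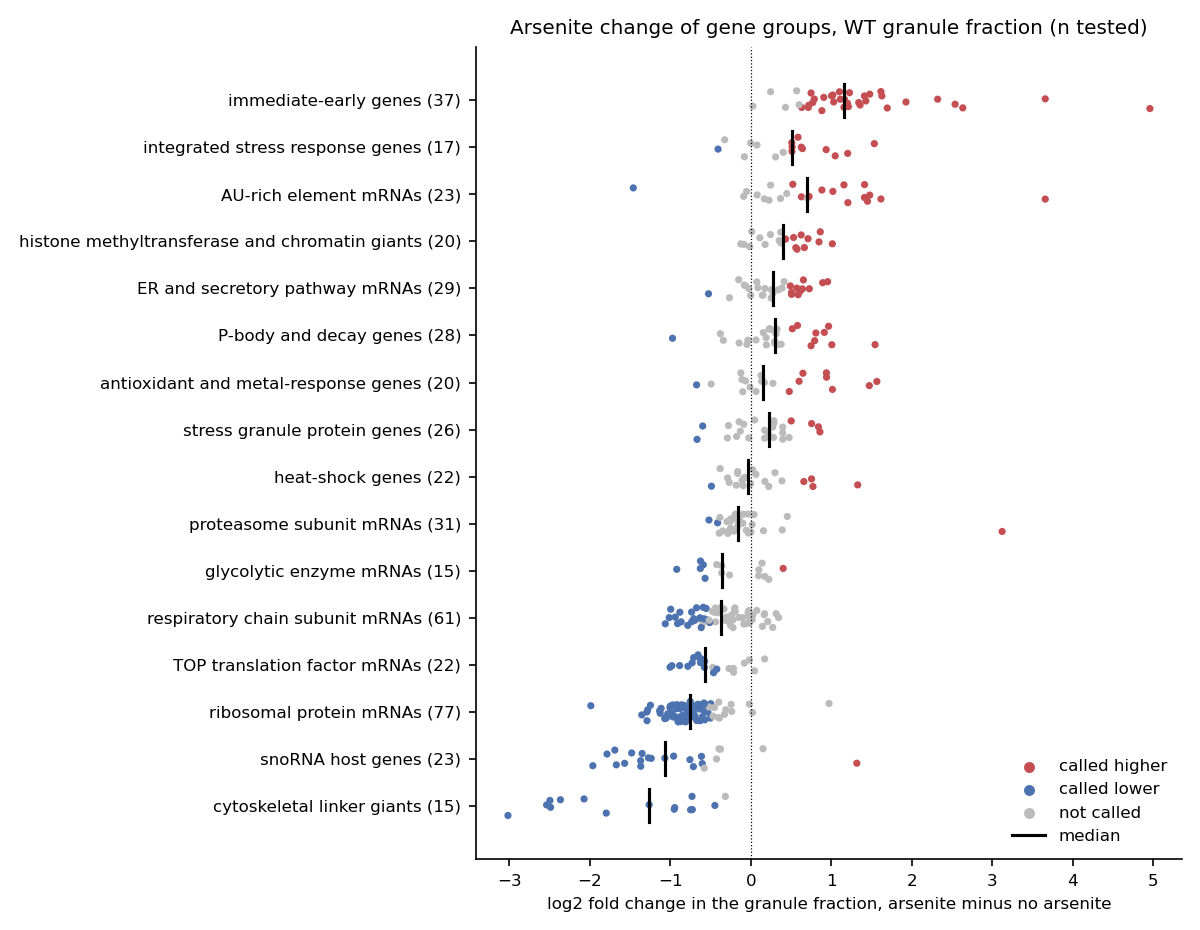
Log2 difference with arsenite for each tested member of 16 gene groups in the WT granule fraction, coloured by the edgeR call, with a black line at the median of the group. Medians run from -1.26 for the cytoskeletal linker giants and -1.07 for snoRNA hosts to 1.16 for the immediate-early genes.

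**Figure D3:**
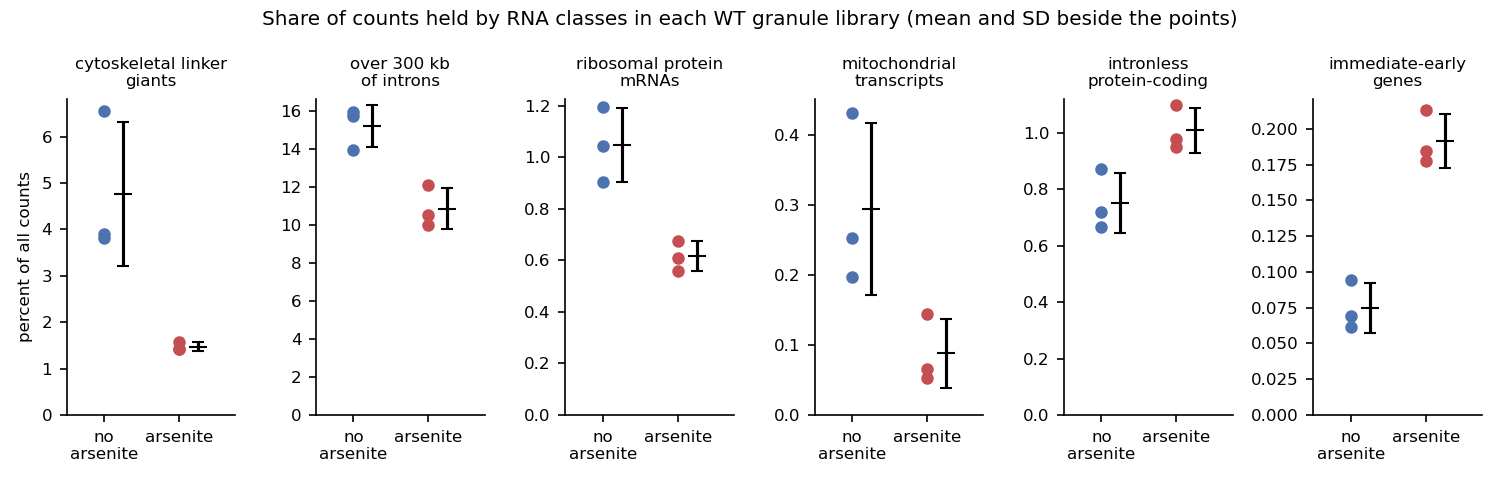
Percent of all counts held by 6 RNA classes in each WT granule library, with the mean and SD of 3 libraries beside the points. Cytoskeletal linker giants go from 4.76% to 1.47% in the mean, and the immediate-early genes, at far smaller shares, from 0.0749% to 0.192%.

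Genes for the granules' own proteins were examined next. Stress granule protein genes were called at 6 of 26, with 4 higher and 2 lower, a share below the background of 30.6% (median 0.23). ELAVL1, or HuR, which binds AU-rich elements, had 119, 118 and 85.3 CPM without arsenite and 208, 179 and 198 CPM with it, a log2 difference of 0.86. PRRC2A rose by 0.84 and PUM2, a Pumilio repressor, by 0.76. G3BP1, the protein that seeds stress granules, was not called (0.29), and its groups overlapped. YBX1, a cold-shock domain protein, fell by 0.67 on the log2 scale. TIAL1, the paralog of TIA1, had 117, 93.6 and 146 CPM without arsenite and 82.6, 83.6 and 70.2 CPM with it. The difference was -0.60 (standard error 0.167, edgeR Benjamini-Hochberg adjusted p 0.00826), and without replicate 3 of the group without arsenite it was -0.44 and not called.

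Genes of processing bodies and mRNA decay rose at 9 of 28 and fell at 1 (median 0.30, 8 to 10 higher without 1 library). DCP2, the decapping enzyme, had 410.4, 253 and 205 CPM without arsenite and 1167, 639.9 and 723 CPM with it. The groups did not overlap, though replicate 1 was the highest library in each, and the difference was 1.55 (standard error 0.223, edgeR Benjamini-Hochberg adjusted p 1.99e-05). Its activator gene DCP1B was the one to fall, at -0.97. Arsenite raised 3 of the 4 Argonaute genes, which load microRNAs, by 0.81 (AGO1), 0.79 (AGO2) and 0.97 (AGO4). CNOT1, the scaffold of the CCR4-NOT deadenylase, rose by 0.91 and its catalytic subunit gene CNOT6 by 1.01. A list of long transcripts known to be rich in stress granules did not move as a group, with 3 of 15 higher and 1 lower (median 0.04). NORAD, a lncRNA that binds Pumilio proteins, had 605, 429.5 and 247 CPM without arsenite and 1262, 838 and 992 CPM with it, a log2 difference of 1.27. The arsenite libraries were all the higher ones. CDK6, a cell-cycle kinase with a long 3′ UTR, rose by 0.79, and MACF1 was the faller. Splicing factors of the SR family and CLK kinases were called at 3 of 18, a share below the background of 30.6%. Among them SRSF8 was higher (1.29) and CLK4 lower (-0.72).

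Among mRNAs translated at the ER, 11 of 29 rose and 1 fell (median 0.28). That count leans on single libraries, being 2 without replicate 3 of the group without arsenite and 6 without replicate 1 or 3 of the arsenite group. SSR1, of the translocon, had 105, 85.9 and 69.8 CPM without arsenite and 210.0, 133 and 160.0 CPM with it, a log2 difference of 0.96 (standard error 0.188, edgeR Benjamini-Hochberg adjusted p 0.000476). Its groups did not overlap. The insulin receptor INSR rose by 0.89. Large chromatin regulators rose at 10 of 20 and fell at none (median 0.40), at 4 without replicate 3 of either group and at 5 in the fit of 24 libraries. SETD1B and SETD1A, which methylate histone H3, rose by 1.01 and 0.85, and the acetyltransferase EP300 by 0.86. PI3K-like kinases, also very long mRNAs, were called at 1 of 6, below the background of 30.6%. Centrosomal CEP genes split, with 4 of 33 higher and 10 lower (median -0.20), and 2 and 5 without replicate 3 of the group without arsenite. CEP295 and CEP350 each differed by -1.20, and CEP97 by 0.90.

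Some of these groups had few called members, and those not yet named are given here, chosen after their values were seen. The fallers among rising stress genes were HSF1, the heat-shock factor itself (-0.49), PHGDH of serine synthesis (-0.41) and TXN, or thioredoxin (-0.67). DAD1, of the oligosaccharyltransferase, was the ER gene that fell (-0.52). Of glycolysis, PKM, PFKL, PFKP and ENO1 differed by -0.62, -0.63, -0.59 and -0.57, and the hexokinase HK2 by 0.40. Of the proteasome, PSMD14 and PSMD1 differed by -0.52 and -0.41, while PSMD5 was called higher with at most 0.162 CPM in any library without arsenite, against 1.23, 1.90 and 0.602 CPM with it. TARDBP, or TDP-43, was the remaining stress granule gene that rose (0.50), USP9X, a deubiquitinase, the remaining long transcript (0.80), and SMG1, of nonsense-mediated decay, the PI3K-like kinase (0.52). SRSF5 differed by -0.57, the lncRNAs MIR17HG and FTX by -1.11 and -0.46, MT-CO1 by -1.64, and CEP19, CEP68 and CEP76 by 0.89, 0.70 and 0.47. Many of these lie close to the threshold. With 1 library left out, PSMD1 was not called in any of the 6 fits, DAD1 and PHGDH in 5, CEP76, ENO1, FTX, HK2 and TARDBP in 4, HSF1 in 3, CEP19, PKM, PSMD14, SMG1, SRSF5 and VIM in 2, and CDH1, TXN and USP9X in 1. None changed direction.

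The direction of change went with the structure of protein-coding transcripts, a description made after values were seen. The length of the 3′ UTR was taken from the Ensembl-canonical transcript, for the 13670 genes that had one. The median log2 difference rose with that length. It was -0.28 at up to 250 bases (1583 genes, 5.37% higher and 25.0% lower) and 0.21 above 4000 bases (1904 genes, 34.1% higher and 8.09% lower). In between, the medians were -0.16, -0.04, 0.06 and 0.17 for bins bounded at 500, 1000, 2000 and 4000 bases. Spearman's rho was taken across the 13722 protein-coding genes tested, which all come from the same 6 libraries and are not independent replicates. It was 0.276 for 3′ UTR length, 0.0132 for coding length and -0.00688 for GC content. Intron length, the gene span outside the exons of every transcript, ran the other way. The 319 genes with a length of 0 had a median of 0.55 (41.7% higher, 5.02% lower). Some of these can be spliced, since an intron can be exon in another transcript. Counted instead by the longest transcript, the 443 genes of 1 exon had a median of 0.31 (35.2% higher, 9.71% lower). The 697 genes with more than 300 kb of introns had a median of -0.39 (1.29% higher, 30.8% lower). All 786 such genes, tested or not, held 15.2% ± 1.11 of counts without arsenite and 10.9% ± 1.09 with it (SD, n = 3). Shares depend on the libraries and the fit. Without replicate 3 of the group without arsenite, 22.3% of genes above 4000 bases of 3′ UTR were called higher. Of genes with an intron length of 0, 25.8% were called higher in that fit. With offsets for GC content and transcript length the median above 4000 bases was 0.13, with 13.9% lower, and in the fit of 24 libraries it was 0.11, with 14.2% lower. Above 4000 bases 3.31%, 4.62% and 4.10% were lower without replicate 3 of the group without arsenite, replicate 1 of the arsenite group and its replicate 3. At up to 250 bases 15.9% were lower without replicate 1 of the arsenite group and 16.5% without replicate 3 of the group without arsenite. In the fit of 24 libraries 39.6% of them were lower, as were 11.7% of genes with an intron length of 0. The share of lower calls among genes with the longest introns was 12.6% without replicate 3 of the group without arsenite, 12.7% without replicate 3 of the arsenite group and 16.8% without its replicate 1, while the medians kept their sign in every setting tried.

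Both properties were seen together. With more than 2000 bases of 3′ UTR and up to 10 kb of introns, 42.2% of 637 genes rose and 5.65% fell (median 0.46; 27.0% higher without replicate 3 of the group without arsenite). With up to 500 bases of 3′ UTR and more than 100 kb of introns, 3.66% of 355 genes rose and 32.1% fell (median -0.39; 18.4%, 17.8% and 17.7% lower without replicate 3 of the group without arsenite, replicate 3 of the arsenite group and its replicate 1). In the WDM granules, which share no library with this comparison, the medians of the same 2 sets were 0.25 and -0.24. By type of gene, lncRNAs had a median of -0.18 (3434 genes, 8.39% higher and 13.1% lower) and snRNA genes one of -1.32 (24 genes, 10 lower and none higher).

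**Figure D4:**
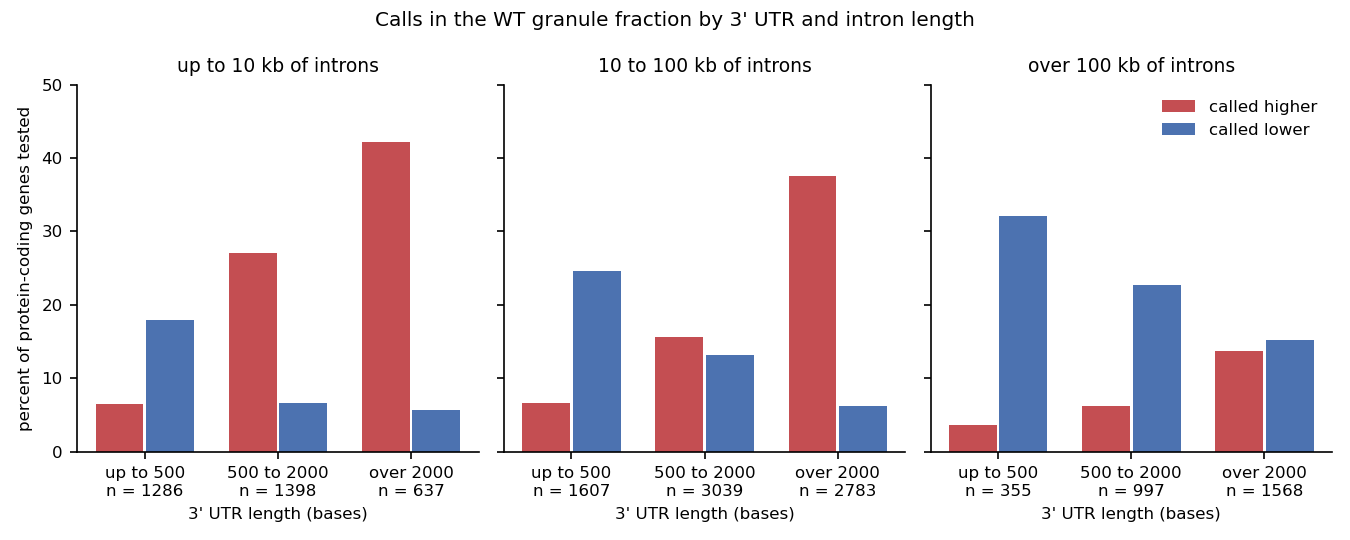
Percent of protein-coding genes called higher (red) or lower (blue) with arsenite in the WT granule fraction, by length of the 3′ UTR in bases, in panels by total intron length, with the number of genes under each pair of bars. The red bars rise with 3′ UTR length in every panel, from 6.53% to 42.2% in the left panel and from 3.66% to 13.8% in the right.

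Cytosol libraries were used to ask whether a granule change followed the level in the cell extract. WT cytosol with arsenite was set against WT cytosol without it, in the fit of 24 libraries, where 1395 genes were called higher (7.69%) and 604 lower (3.33%). Of the 2993 genes higher in the granule fraction that both fits tested, 228 were higher and 210 lower in cytosol. Of the 2547 lower ones, 61 were lower and 284 higher in cytosol. The difference of the arsenite effects, granule minus cytosol, was called higher at 2180 genes (12%) and lower at 3524 (19.4%), with a median of -0.21 over 18141 genes. Without a filter on low counts it was called higher at 2856 and lower at 2041 genes, so the balance of directions in this test depends on that choice. The granule comparison and the difference share the granule libraries, so their values are given side by side. Granule log2 values below are from the fit of the 12 granule libraries, and cytosol values and differences from the fit of 24. The printed granule value less the cytosol value therefore need not equal the printed difference.

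Immediate-early genes rose in both fractions, at 16 of 36 in cytosol (background 7.69%) and none lower. EGR1 went from 1.58 ± 0.839 to 109 ± 12.6 CPM in cytosol (SD, n = 3), a log2 rise of 6.08, and the difference, granule minus cytosol, was -1.21 (standard error 0.356, edgeR Benjamini-Hochberg adjusted p 0.0108). That difference was not called without replicate 2 of the cytosol without arsenite (-0.89). FOS showed 4.93 in cytosol and a difference of -1.36, and FOSB 3.48 and -1.89. MCL1 rose by 1.62 in the granules and was not called in cytosol (0.44), with a difference of 1.08. Over the list the difference was called higher at 12 genes and lower at 4. KCTD12 was at 138 ± 7.90 CPM in cytosol without arsenite and 141 ± 7.82 CPM with it, a log2 change of 0.03 that was not called, and the difference was 1.84 (standard error 0.267, edgeR Benjamini-Hochberg adjusted p 1.64e-05). LINC02150 had at most 3 counts in each cytosol library without arsenite, a mean of 0.135 CPM, and 3.2 CPM with it, so its fitted difference of -2.65 rests on a level at the floor and is imprecise.

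Some genes went in opposite directions in the fractions. POFUT1 (ENSG00000101346, chromosome 20, 32207880 to 32238658, plus strand), an ER enzyme that adds fucose to Notch, had 114, 113 and 98.8 CPM in granules without arsenite and 292, 235 and 299 CPM with it. In cytosol it fell from 258 ± 19.1 to 159 ± 7.90 CPM, and the difference was 1.94 (standard error 0.180, edgeR Benjamini-Hochberg adjusted p 1.53e-07). DPY19L1, an ER mannosyltransferase, and INSIG1, an ER sterol sensor, behaved in the same manner, with 1.65 and 1.20 in granules and -0.69 and -0.65 in cytosol. For DENND11 and GID8 the differences were 1.69 and 1.67, with small cytosol changes of -0.36 and -0.37 (edgeR Benjamini-Hochberg adjusted p 0.0496 and 0.0536, so that GID8 was not called there). Over the ER list, 19 of 29 genes fell in cytosol (background 3.33%, median -0.59) and none rose, and the difference was called higher at 15 and lower at none. SNHG1 was opposite, at -1.37 in granules and 0.51 in cytosol, where it rose from 101 ± 14.8 to 143 ± 4.01 CPM. Its difference was -1.99 (standard error 0.218, edgeR Benjamini-Hochberg adjusted p 1.45e-06), and SNHG12 had 0.89 in cytosol and a difference of -2.35. Of the 23 hosts, 16 had a called difference, every one lower (background 19.4%). Cytoskeletal linker mRNAs were not called in cytosol at any of 15 (median -0.19), and 12 had a difference called lower. PLEC went from 50.2 ± 21.8 to 41.4 ± 7.28 CPM in cytosol, with a difference of -2.84. Protein-coding genes with more than 300 kb of introns had a median of 0.47 in cytosol and of -0.97 for the difference. All genes had 0.01 and -0.21. For lncRNAs these medians were 0.42 and -0.80. Nuclear-retained lncRNAs had 0.64 and -1.47, with the difference called lower at 6 of 8 and higher at 1. For ribosomal protein mRNAs the difference was called lower at 32 of 77 (background 19.4%). Leaving out 1 library gave 15 to 18 in 7 of 12 cases, and no filter on low counts gave 14. The count for ribosomal protein mRNAs therefore depends on the setting.

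**Figure D5:**
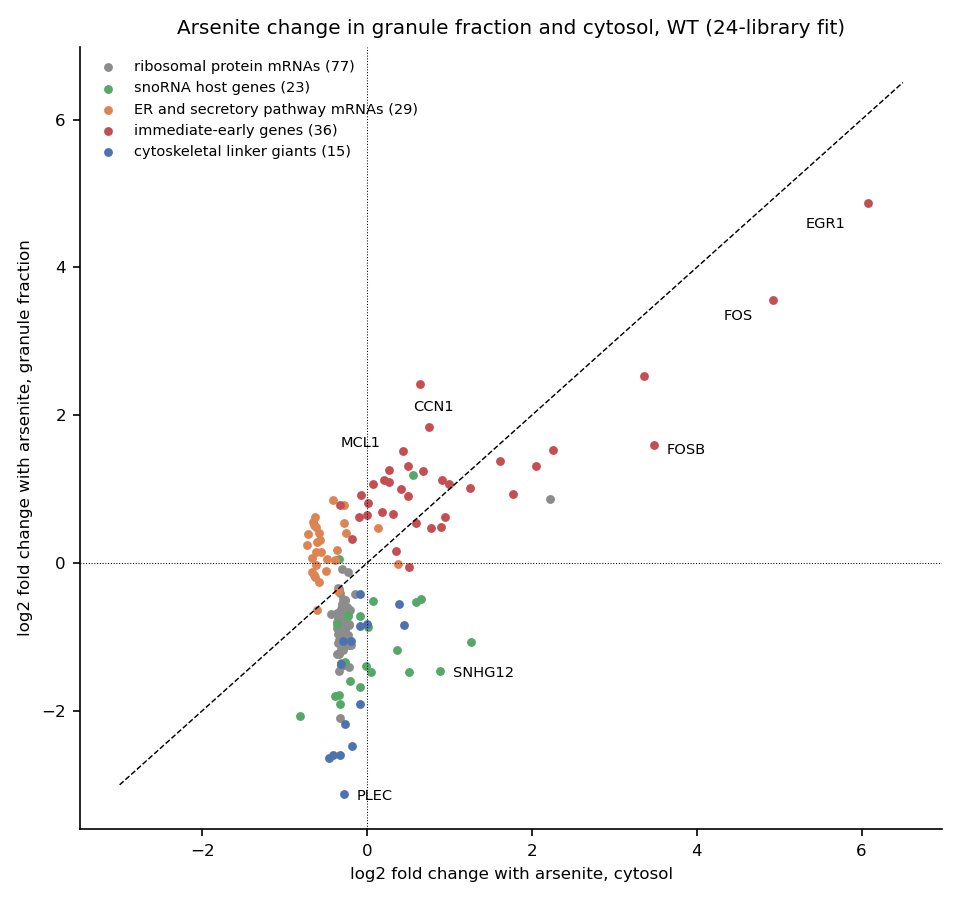
Log2 difference with arsenite in WT cytosol (horizontal) and in the WT granule fraction (vertical) for members of 5 gene groups, from the fit of 24 libraries; the dashed line marks equal change. EGR1, FOS and FOSB lie below the line at high values on both axes, ER mRNAs (orange) lie mostly left of 0 and above the line, and cytoskeletal linker mRNAs (blue) lie below it.

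The WDM line was used to ask whether the arsenite effect on granule RNA depended on the TIA1a form. In WDM granules 6675 genes were called, 3429 higher (18.7%) and 3246 lower (17.7%). In both lines 3635 genes were called in the same direction, which is 64.7% of the WT calls and 54.5% of the WDM calls, and 0 in opposite directions. A test of the difference between the lines called 0 of 18366 genes with edgeR (smallest Benjamini-Hochberg adjusted p 0.173), although 2329 had an unadjusted p under 0.05. DESeq2 called 9, and edgeR without a filter on low counts called 44. In WDM granules 32 immediate-early genes and 17 chromatin regulators rose, and 73 ribosomal protein mRNAs and 12 cytoskeletal linker mRNAs fell. Counts of other groups stood further apart. ER mRNAs were called higher at 6 and lower at 8 in WDM (median -0.05), against 11 and 1 in WT (0.28). Proteasome mRNAs fell at 17 in WDM and 2 in WT, histone genes at 37 and 12, respiratory chain mRNAs at 44 and 22, and heat-shock genes at 5 and 1. No member of these lists was called in the test of the difference. Over protein-coding genes the WDM medians also went with the GC content of the longest transcript. They were -0.45 at up to 35% (246 genes) and 0.28 at 55 to 60% (1989 genes), where the WT medians were -0.07 and 0.02. Whether GC content bears on the counts of these groups was not tested. In WDM granules EGR1 rose by 5.78 and PLEC differed by -2.06. By the smallest p, the genes nearest to a difference were KMT2B, a histone methyltransferase, at -0.08 in WT and 1.11 in WDM (difference 1.19, standard error 0.238, edgeR Benjamini-Hochberg adjusted p 0.173), MUC16, a mucin, with a difference of 1.35, and ATN1 and FBRSL1 with 1.15 and 0.95. GPR180 and NAE1 had differences of -1.18 and -1.04. None of the 6 was called, and a p that misses the threshold does not show that the lines respond alike.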

How the data were processed

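The deposited table holds raw read counts per gene, which the authors made from RNA-seq reads; the submitters' processing notes name Trimmomatic, STAR, Picard and featureCounts and the GRCh38 build, without versions. Strand setting and the handling of reads that match several genes are not given in the sources used here. Of 60664 gene identifiers, 60463 were found in GENCODE release 44, 56693 of them with identical start and end. Symbols and positions come from the deposited table, and transcript features from that release. Transcript length and GC content are of the longest transcript. Coding and 3′ UTR lengths are of the Ensembl-canonical one. Intron length is the gene span less all bases in an exon of any transcript. Every value column matched a sample, so columns without a sample numbered 0.

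Counts were scaled by TMM and tested with the quasi-likelihood test of edgeR 4.0.16 in R 4.3.3 (robust fit, limma 3.58.1), with filterByExpr at a minimum count of 10 and a total of 15, and Benjamini-Hochberg adjustment over all genes tested. Genes under an adjusted p of 0.05 are called. The WT granule contrast and its difference from WDM came from 12 granule libraries (18366 genes), and cytosol contrasts from 24 libraries of tetracycline-treated cells (18141 genes). The fit was first tested on simulated counts. Shares of counts were compared by an exact permutation test. CPM values use the TMM-scaled total of the genes tested, and log2 differences use the TMM-scaled fit. Shares of counts, and the floor for a count of 0, use the unscaled total count of the library. Promoters come from RefSeq on GRCh38.p14. Alternatives were DESeq2 1.42.0, other scaling, no filter, a replicate block, thinning, other library sets, offsets for GC content and transcript length, and each library left out; the fit of 24 libraries for the granule contrast was chosen after seeing the data.

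The members and gene lists were chosen with earlier results of these data known. Named genes are up to 15 higher and 15 lower called genes with a symbol, groups that do not overlap and, in the higher of them, a mean CPM of 5 or more, by size of the log2 difference; up to 6 genes of smallest p for each difference of effects; TIA1 and TIAL1; and list members, called ones of large change first. Genes withheld from this text are counted in the totals and are not reported here by name. List members named for other reasons, and the 3′ UTR and intron bins, were chosen after values were seen.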

Additional observations from a re-analysis of the deposited data

Results flagged for a closer look

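The arsenite effect differed between the WT granule fraction and WT cytosol for 5704 of 18141 genes, by a test of the difference itself (edgeR quasi-likelihood test, Benjamini-Hochberg adjusted p under 0.05). The named genes among them are given here by that difference, granule minus cytosol, on the log2 scale.

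Granule effects above the cytosol effect were seen for DPY19L1 (2.23), DCK (2.19), DUSP19 (2.12), POFUT1 (1.94), TP53INP1 (1.91), SOX7 (1.88), KCTD12 (1.84), INSIG1 (1.74), DENND11 (1.69), GID8 (1.67), GPR180 (1.37) and CCN1 (1.08). DCK, DUSP19, TP53INP1, SOX7, KCTD12 and CCN1 were also among the largest rises of the granule fraction itself. SOX7 was not called after thinning to the smallest library (1.51).

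Granule effects below the cytosol effect were seen for 3 RNAs that rose in granules, LINC02150 (-2.65), FOS (-1.36) and EGR1 (-1.21). The size for LINC02150 is imprecise, since its cytosol libraries without arsenite held at most 3 counts each. EGR1 was not called without replicate 2 of the cytosol without arsenite (-0.89). Among genes that fell in granules, the cytoskeletal and junctional ones were PLEC (-2.84), EPPK1 (-2.30), SYNE2 (-2.29), DBN1 (-2.25), SPTAN1 (-2.19), SPTBN1 (-2.18) and CGN (-1.96). The RNAs of the signal recognition particle family RN7SL3 and RN7SL4P stood at -2.37 and -2.23, the microRNA host MIR222HG at -2.17 and the snoRNA host SNHG1 at -1.99. MT-CO3 stood at -1.77, and was not called without replicate 1 of the granules without arsenite (-1.30) or without a filter on low counts (-1.56).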

How the results depend on the processing

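The count of genes called for arsenite in WT granules was 5620, and 3157 to 5418 without 1 library; without replicate 3 of the group without arsenite, the deepest of that group, 54.3% of the calls remained in the same direction. Other settings gave 4440 (thinned to the smallest library) to 6948 (fit of 24 libraries), all within 1.5 times the main count. The difference between the lines, 0 genes with edgeR, was 9 with DESeq2, 44 without a filter on low counts, and 0 to 5 without 1 library (1 without WT no-arsenite replicate 1, 5 without WT no-arsenite replicate 3, 2 without WDM arsenite replicate 1). The granule minus cytosol count of 5704 lay between 4309 and 6288 in all settings. Of 130 genes named and called, 105 were called in the same direction in all 6 fits that left out 1 library of the WT granule groups, 116 under each of the other 10 alternatives that tested them, and none reversed. Among the 15 largest falls, 5_8S_rRNA, MIR3648-2 and MT-CO3 were not called without a filter on low counts (-2.42, -2.30 and -2.15), and MIR3648-2 was not called with offsets for GC content and length (-1.52). Shares of counts by RNA class kept their direction in every setting run.

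The replicate numbers of the titles were not taken as a pairing. Deviations of WT granule libraries with the same number correlated at 0.158, 0.209 and -0.0771, and replicate 3 without arsenite correlated best with replicate 2 of the arsenite group (0.125). With arsenite, WT granule and cytosol libraries of the same number correlated at 0.0600, 0.197 and 0.230, each the best match of its granule library. Without arsenite those of the same number correlated at -0.0904, -0.0883 and 0.0679. The granule minus cytosol test was fitted without pairing. With a replicate block 5393 genes were called for WT granules, 5994 with offsets for GC content and length as well (6279 with the offsets alone), 6288 for granule minus cytosol and 0 for the difference between the lines.

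Depth limits low genes in the shallow libraries without arsenite, and 3 libraries a group limit every exact test of a share to p = 0.1 or more.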

Other observations

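Zinc-finger (ZNF) genes on chromosome 19, a large family of mostly KRAB-type repressors, leaned upward in WT granules with arsenite. Of 188 tested, 57 were called higher and 3 lower (edgeR, background 16.5% and 14.1%), with a median log2 difference of 0.28. The count of higher genes was 26 without replicate 3 of the group without arsenite or without replicate 1 of the arsenite group. ZNF677 differed by 1.30, ZNF699 by 1.18 and ZNF418 by -0.99. ZNF805 had 161, 160.6 and 73.4 CPM without arsenite and 398, 270.4 and 264 CPM with it, so the groups did not overlap although replicate 3 without arsenite was well below its fellows. In cytosol 5 of the 188 were called higher (background 7.69%) and none lower (background 3.33%). In WDM granules 19 were higher (background 18.7%) and 12 lower (background 17.7%). All of these counts are below the background share.

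Membrane transporter genes of the SLC families were chosen after values were seen. Of 260 tested, 30.4% were called in either direction, against 30.6% of all genes. They were called higher at 54 and lower at 25 (background 16.5% and 14.1%), with a median of 0.12. Without replicate 3 of the group without arsenite these counts were 33 and 11, and the lower count was 14 to 16 without replicate 2 of that group or replicate 1 or 3 of the arsenite group. SLC25A24, a mitochondrial carrier of ATP-Mg and phosphate, had 65.7, 44.9 and 43.8 CPM without arsenite and 199, 124 and 133 CPM with it, a log2 difference of 1.58. The TMEM genes, a naming class of transmembrane proteins also chosen after values were seen, were called higher at 27 and lower at 18 of 168, close to the background, with 8 lower without replicate 3 of the group without arsenite. TMEM185B, an intronless gene, had 41.9, 38.7 and 30.6 CPM without arsenite and 126, 109.6 and 136 CPM with it, a log2 difference of 1.75.

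Protein-coding genes were also ordered by how much higher they stood in granules than in cytosol in the WDM line without arsenite, whose libraries are outside the WT contrast. The 114 genes at more than 3 on the log2 scale had a median arsenite difference of -0.60 in WT granules, with 48.2% called lower and 1.75% higher. The 626 genes between 2 and 3 had a median of -0.39. The 4244 genes between -1 and 0 had a median of 0.15, with 27.7% called higher and 10.4% lower. The 640 genes at or below -2 had a median of -0.20. Genes are not replicates, and these bins carry no test.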
